A study of Bos taurus with 8 samples.

Results

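The transcripts of the nuclear pore complex were followed in bovine embryos at the 4-cell and 8-cell stages. Members were the gene symbols in the deposited table that start with NUP and a number, together with RANBP2, TPR, POM121, NDC1, AAAS, SEH1L, SEC13, RAE1 and AHCTF1. The table of 16606 genes held 31 of them, and POM121 was not analysed here. Of the 31, 29 had a mean of at least 1 CPM (reads of a gene scaled to a common library total) over the 8 libraries and were tested among 12129 genes. NUP210 and NUP210L, which encode a membrane glycoprotein of the pore and its relative, did not reach that mean.

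The embryos came from abattoir oocytes matured and fertilised in vitro with Holstein semen. Edited embryos carried the treatment that the labels name RPL12A148G: zygotes were injected in the cytoplasm with PEmax, a prime editor made of a Cas9 nickase and a reverse transcriptase, and its guide RNA. RPL12 encodes a protein of the large ribosomal subunit. Control embryos were collected at the same stages, and the labels do not say whether they were injected. The sample titles speak of base editing, the protocol of prime editing, and the share of edited alleles is not stated. The groups were 4-cell control, 4-cell edited, 8-cell control and 8-cell edited embryos, with 2 libraries each and 5 pooled embryos per library. The 4-cell samples have oocytes as their source name, and the stage was taken from the titles.

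The pore complex is the channel through the nuclear envelope by which proteins and RNA move between nucleus and cytoplasm. Its scaffold consists of outer rings built from the Y-shaped NUP107-NUP160 complex and an inner ring. The scaffold is held in the membrane by transmembrane members and carries a central channel of proteins rich in phenylalanine-glycine repeats, with filaments on the cytoplasmic side and a basket on the nuclear side. In a cleaving embryo pores have to be inserted into every new nucleus, and early nuclei draw on a store of pore proteins and messages laid down in the oocyte. The levels measured here are of transcripts, not of proteins or of pores.

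Between 33527531 and 35122409 reads were assigned to genes in a library. RPL12 itself stood at 159 and 174 CPM in the 4-cell control libraries, 27.5 and 33.6 CPM in the 4-cell edited, 96.3 and 97.6 CPM in the 8-cell control, and 14.1 and 11.9 CPM in the 8-cell edited libraries. All 15 measured genes of a list of oocyte and early embryo transcripts were detected, and their summed level was lowest in 4-cell controls, at 19844 and 26223 CPM, against 37669 to 57895 CPM in the other 6 libraries. Of these 15 genes 6 were called higher and 1 lower in edited embryos at the 4-cell stage. The median of their log2 fold changes there was 0.50. In 8-cell embryos editing raised 2 of the 15 by the same rule, a share of 13.3%, beside 1.08% of all genes tested. All 15 had positive log2 fold changes in that comparison, with a median of 0.46. The part of these 15 genes in the changes of pore transcripts was not tested. All 26 listed cumulus and granulosa cell genes had reads in at least 1 library. Their summed level was 5357 and 8260 CPM in 4-cell controls, 1851 and 2563 CPM in 4-cell edited, 3972 and 3813 CPM in 8-cell controls, and 678.5 and 1298 CPM in 8-cell edited libraries. Of the 24 tested, 18 were called lower and 1 higher in edited embryos at the 4-cell stage, and 10 lower at the 8-cell stage. Of all genes tested 25.8% were called lower and 18.9% higher at the 4-cell stage, and 14.5% lower at the 8-cell stage. HSD3B1 and CYP11A1, enzymes of steroid synthesis, were measured in all 8 libraries, whereas FOXL2 had no reads in 4. The somatic cell genes thus move with the editing groups, and their part in the changes of pore transcripts was not tested. In pools of whole embryos, fewer cells of a type and less RNA per cell cannot be told apart.

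The first question was whether pore transcripts differ between edited and control embryos at the 4-cell stage. Of the 29 members tested, 12 rose and 2 fell in edited embryos, at an adjusted p-value under 0.05 by limma, and 15 did not pass. The share that rose was 41.4%, beside 18.9% of all genes tested, and the share that fell was 6.90%, beside 25.8%. The median log2 fold change of the members was 0.58, where that of all genes was -0.02. Here and below, fold changes are differences on the log2(CPM + 1) scale, and p-values measure the spread between pools, of which there are only 2 in each group. In 18 members both edited libraries lay above both controls, and in 3 both lay below, beside 33.5% and 37.5% of all genes. The 31 genes summed to 2856 and 3834 CPM in 4-cell controls and to 5221 and 5839 CPM in 4-cell edited embryos. The 8-cell sums were 4846 and 4033 CPM in controls and 4980 and 5325 CPM in edited embryos, all above the 4-cell controls, and those of the 8-cell edited embryos overlapped the 4-cell edited ones. Over the 4 groups, 19 of the 29 members had their lowest mean in 4-cell controls (65.5%, beside 39.5% of all genes) and 18 their highest in 4-cell edited embryos (62.1%, beside 26.5%).

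**Figure D1:**
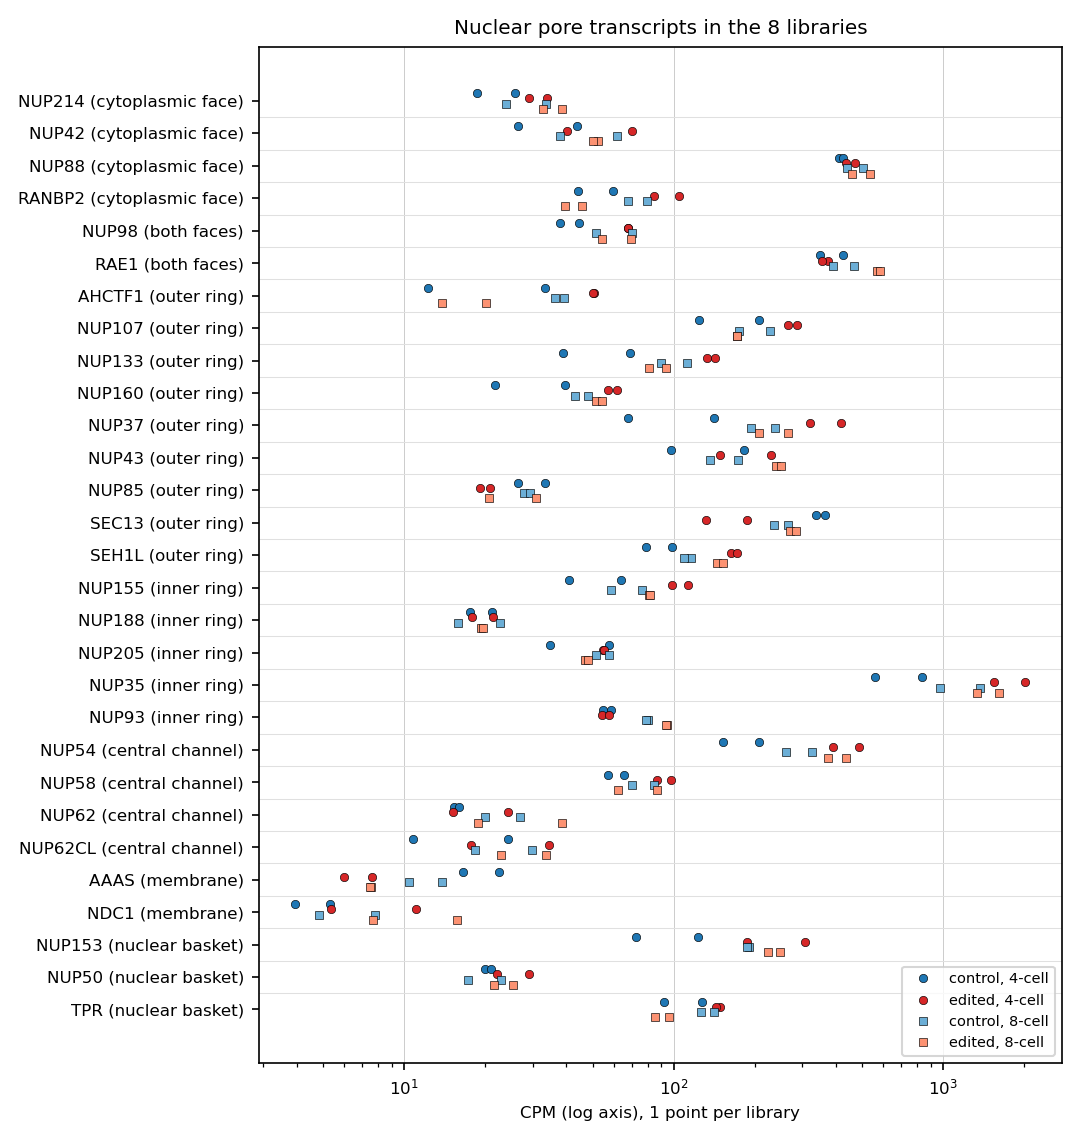
Level of the 29 tested nuclear pore transcripts in CPM (log axis), with 1 point per library, grouped by place in the pore. In 19 of the 29 genes the 4-cell control group (dark blue circles) had the lowest mean, and in 18 the 4-cell edited group (dark red circles) had the highest.

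The outer ring held 6 of the 12 members that rose. NUP37, a peripheral subunit of the Y-shaped complex, had 67.6 and 141 CPM in 4-cell controls, 322 and 419 CPM in 4-cell edited, 237 and 194 CPM in 8-cell control and 208 and 266 CPM in 8-cell edited libraries. The 4-cell edited libraries were the highest and the 4-cell controls the lowest, without overlap. The ratio of the 4-cell means was 3.56, and the log2 fold change of 1.90 (SE 0.29, adjusted p by limma 9.58e-05) was the largest of the 29 at either stage.

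NUP133, which forms the stem tip of the Y-shaped complex, stood at 39.0 and 69.0 CPM in 4-cell controls and at 142 and 133 CPM in 4-cell edited embryos. At the 8-cell stage it stood at 112 and 89.4 CPM in controls and at 93.9 and 81.2 CPM in edited embryos. It was thus higher in edited embryos at the 4-cell stage (log2 fold change 1.38 with SE 0.27, adjusted p by limma 0.000662), whereas at the 8-cell stage the groups overlapped.

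AHCTF1 (also known as ELYS) binds chromatin and seeds pore assembly at the end of mitosis. Its 4-cell values were 12.3 and 33.2 CPM in controls and 50.7 and 50.4 CPM in edited embryos, a log2 fold change of 1.27 (SE 0.37, adjusted p by limma 0.0105). At the 8-cell stage the order was the opposite, with 39.3 and 36.3 CPM in controls and 13.8 and 20.2 CPM in edited embryos. The 2 control libraries at the 4-cell stage differed 2.71-fold from each other, the widest gap between libraries of a group among the 29 genes.

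Of the other scaffold genes of the Y-shaped complex, NUP160 rose from 21.6 and 39.4 CPM to 57.0 and 61.5 CPM, with a log2 fold change of 0.99. NUP107 rose from 124 and 208 CPM to 265 and 287 CPM (log2 fold change 0.78). SEH1L, a WD-repeat subunit that also serves in the GATOR2 complex of nutrient signalling, rose from 78.7 and 98.5 CPM to 163 and 172 CPM (log2 fold change 0.92). In these 3 genes no edited library overlapped a control library, and the limma adjusted p-values lay between 0.00284 and 0.0192.

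SEC13 is likewise a subunit shared with other complexes, as it also belongs to the COPII coat of secretory vesicles. It changed in the opposite direction to these 6 genes: 338 and 363 CPM in 4-cell controls stood against 187 and 132 CPM in 4-cell edited embryos (log2 fold change -1.15 with SE 0.22, adjusted p by limma 0.00058). At the 8-cell stage it had 236 and 265 CPM in controls and 270.2 and 286 CPM in edited embryos. NUP85, which joins the Y-shaped complex beside SEH1L, had 26.5 and 33.4 CPM in controls and 20.7 and 19.1 CPM in edited embryos at the 4-cell stage and did not pass (adjusted p-value 0.135). NUP43 did not pass either, with 97.6 and 183 CPM against 149 and 229 CPM.

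In the inner ring NUP35 and NUP155 rose. NUP35, a small scaffold protein that can bind membranes, had 561 and 838 CPM in 4-cell controls, 1549.6 and 2023 CPM in 4-cell edited, 1377 and 974 CPM in 8-cell control and 1331 and 1613 CPM in 8-cell edited libraries. Both 4-cell controls were below the other 6 libraries, and the 4-cell log2 fold change was 1.37 (SE 0.25, adjusted p by limma 0.000429). NUP35 made up 19.7% and 21.8% of the summed CPM of the 31 genes in 4-cell controls and 29.7% and 34.6% in 4-cell edited embryos. Without NUP35 the sums were 2295 and 2997 CPM against 3671 and 3816 CPM.

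NUP155 rose from 41.1 and 63.7 CPM to 98.4 and 113 CPM, with a log2 fold change of 1.03 (limma adjusted p-value 0.00433). The large scaffold proteins NUP188 and NUP205, also of the inner ring, and NUP93 which links them, did not pass at the 4-cell stage. NUP188 had 21.2 and 17.5 CPM in controls and 21.4 and 17.8 CPM in edited embryos, and its log2 fold change was 0.02 (SE 0.30). NUP93 had 54.8 and 58.7 CPM against 54.2 and 57.6 CPM (log2 fold change -0.02, SE 0.23), and NUP205 had 34.9 and 57.6 CPM against 54.8 and 55.1 CPM.

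The central channel is formed by NUP62, NUP54 and NUP58, which carry phenylalanine-glycine repeats and assemble together. Only NUP54 of these passed at the 4-cell stage. It rose from 152 and 207 CPM to 390.0 and 487 CPM (log2 fold change 1.29 with SE 0.23, adjusted p by limma 0.000313), with 326 and 262 CPM in 8-cell controls and 438 and 374 CPM in 8-cell edited embryos. NUP58 had 57.0 and 65.6 CPM against 87.0 and 97.7 CPM and an adjusted p-value of 0.0652, although the libraries did not overlap. NUP62 had 15.3 and 16.0 CPM against 24.2 and 15.2 CPM, and the related gene NUP62CL 10.8 and 24.2 CPM against 17.7 and 34.5 CPM. Both overlapped between the groups. Whether the passing gene changed more than its channel partners was not tested.

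On the cytoplasmic face RANBP2 rose. It encodes a very large filament protein that binds Ran and acts as a SUMO ligase. RANBP2 had 44.0 and 59.8 CPM in 4-cell controls, 84.7 and 104 CPM in 4-cell edited, 79.6 and 67.6 CPM in 8-cell control and 39.6 and 45.6 CPM in 8-cell edited libraries. The 4-cell log2 fold change was 0.86 (SE 0.25, adjusted p by limma 0.0112), and no edited library overlapped a control library at either stage. NUP88, a partner of NUP214 in mRNA export, was the steadiest member, with a highest library only 1.30 times the lowest. It lay between 412 and 534 CPM and had a 4-cell log2 fold change of 0.11 (SE 0.20). NUP214 and NUP42, which takes part in mRNA release at the filaments, did not pass, with log2 fold changes of 0.50 and 0.63.

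NUP98 encodes a repeat protein found on both faces and, from the same precursor, the scaffold protein NUP96 of the Y-shaped complex. It rose from 38.0 and 44.4 CPM to 68.0 and 67.9 CPM in 4-cell embryos (log2 fold change 0.71 with SE 0.26, adjusted p by limma 0.032). When only the 4 libraries of this comparison were fitted, its adjusted p-value was 0.0707. RAE1, the mRNA export factor that binds NUP98, did not pass, with 349.6 and 424 CPM against 374 and 355 CPM.

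In the nuclear basket NUP153, which anchors the basket and binds the lamina, rose from 72.4 and 123 CPM to 306 and 187 CPM (log2 fold change 1.33 with SE 0.27, adjusted p by limma 0.00101). Its 8-cell levels were 191 and 188 CPM in controls and 247 and 224 CPM in edited embryos. TPR, the filament of the basket, had 92.5 and 127 CPM against 149 and 143 CPM, and NUP50, which helps importins to release their cargo, 20.0 and 21.0 CPM against 29.0 and 22.0 CPM. Neither of these passed, with adjusted p-values of 0.146 and 0.456.

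AAAS encodes ALADIN, a WD-repeat protein that NDC1 holds at the membrane, and it was the other member that fell. It had 16.5 and 22.5 CPM in 4-cell controls and 5.96 and 7.58 CPM in 4-cell edited embryos (log2 fold change -1.39 with SE 0.34, adjusted p by limma 0.00352). NDC1 itself had 3.94 and 5.31 CPM against 11.1 and 5.35 CPM and did not pass (log2 fold change 0.65, SE 0.43). The 2 genes of this anchoring pair thus had estimates of opposite sign, of which that of AAAS passed.

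The 4-cell result rested in part on single libraries. Without replicate 1 of the 4-cell controls, which was the lowest library for 19 of the 29 members (65.5%, beside 27.4% of all genes tested), 6 members were called higher, beside 10.8% of all genes, and 2 lower. AHCTF1, NUP107, NUP155, NUP160, NUP98 and RANBP2 then no longer passed. Without replicate 2 of the 4-cell edited embryos 7 were called higher, beside 15.9% of all genes, and 2 lower.

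**Figure D2:**
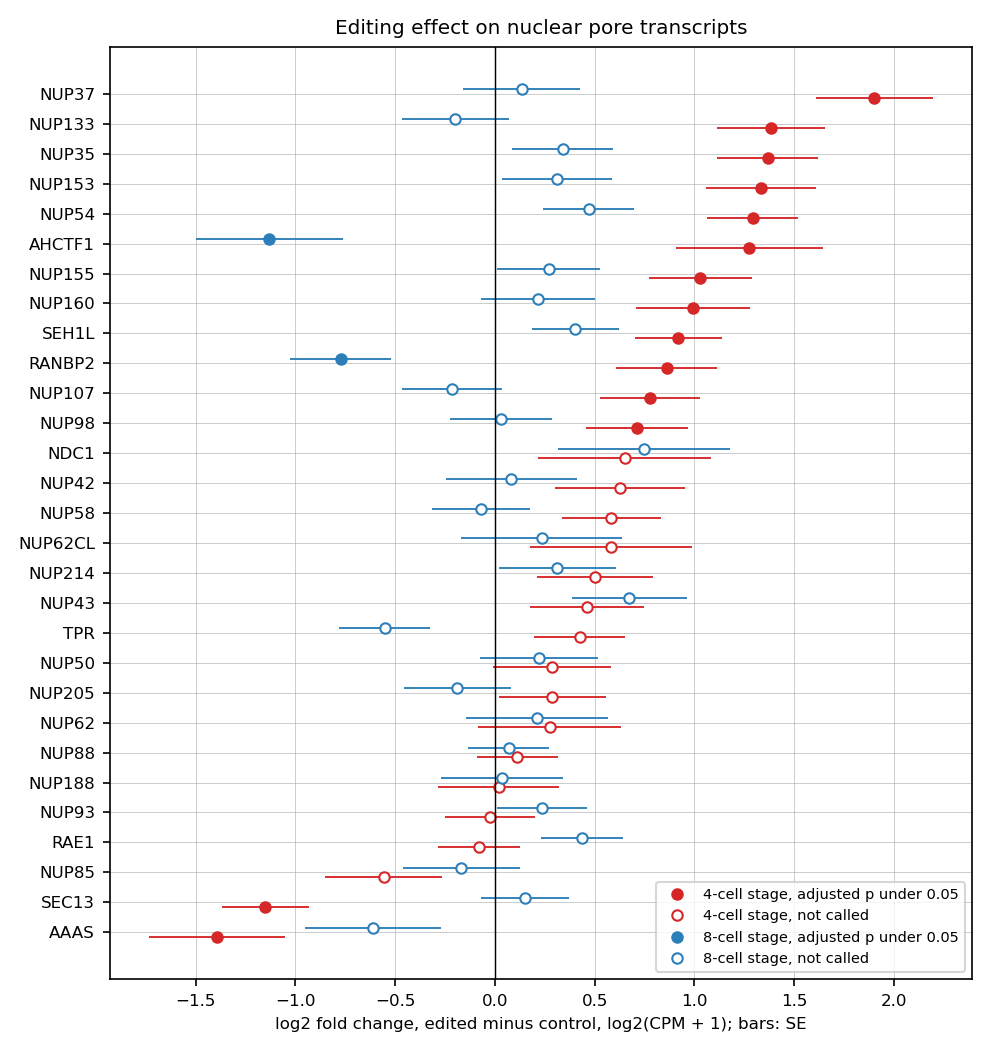
Editing effect (log2 fold change, edited minus control) on the 29 tested genes in 4-cell (red) and 8-cell embryos (blue), with the SE, on the log2(CPM + 1) scale. Filled points passed at an adjusted p-value under 0.05: 14 genes in 4-cell and 2 in 8-cell embryos, where AHCTF1 and RANBP2 lie on the negative side.

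At the 8-cell stage the same comparison gave far fewer calls. AHCTF1 and RANBP2 were called lower in edited embryos, a share of 6.90% beside 14.5% of all genes tested. Their log2 fold changes were -1.13 (SE 0.37) and -0.77 (SE 0.25), with limma adjusted p-values of 0.0487 and 0.0482. These calls lie close to the threshold and ended with edgeR, which gave adjusted p-values of 0.112 and 0.118, and in each fit that left out 1 of the 8-cell libraries or 1 of the 4-cell edited libraries.

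No member was called higher at the 8-cell stage with all 8 libraries fitted by limma with the main settings, edgeR or DESeq2, beside 1.08% of all genes with limma. Unadjusted limma p-values were under 0.05 for 4 members, beside 27.1% of all genes: AHCTF1, RANBP2 and TPR on the lower side and NUP43 on the higher. TPR had 141 and 126 CPM in 8-cell controls and 85.6 and 96.0 CPM in 8-cell edited embryos (adjusted p-value 0.129). NUP43 had 173 and 136 CPM against 240.3 and 251 CPM (adjusted p-value 0.141). With limma NUP43 was called higher when only the 4 libraries of this comparison were fitted (adjusted p-value 0.0259) and without either 4-cell control library (adjusted p-values 0.0448 and 0.0468). The median log2 fold change of the members was 0.15, where that of all genes was 0.00. Both edited libraries lay above both controls in 9 members and below them in 6, beside 27.7% and 32.7% of all genes.

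Of the 12 members that rose at the 4-cell stage, 5 had both edited libraries above both controls at the 8-cell stage, and none of these 5 passed there. That count is to be read beside 27.7% of all genes tested. The share among all genes that rose at the 4-cell stage was not determined. SEH1L had 116 and 109 CPM in 8-cell controls and 145 and 153 CPM in 8-cell edited embryos, with a log2 fold change of 0.40 (SE 0.22). NUP54 and NUP153, with the values given above, belonged to the same 5. NUP155 had 76.6 and 58.8 CPM against 80.7 and 81.4 CPM, and NUP160 had 48.2 and 42.9 CPM against 51.7 and 54.3 CPM. In NUP107 the edited libraries were the lower ones, with 228 and 175 CPM against 173 and 172 CPM (log2 fold change -0.21, SE 0.25). NUP98 overlapped between the groups, as did NUP35, NUP37 and NUP133, and stood at 70.3 and 51.4 CPM against 54.4 and 69.4 CPM.

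AAAS was below the controls at the 8-cell stage too, with 10.4 and 13.8 CPM against 7.56 and 7.46 CPM, and did not pass (log2 fold change -0.61, SE 0.34, adjusted p-value 0.271). Its membrane partner NDC1 had 7.78 and 4.82 CPM against 7.65 and 15.7 CPM, with overlap. The inner ring scaffold NUP205 had 57.4 and 51.3 CPM against 46.8 and 48.3 CPM (log2 fold change -0.19, SE 0.27). NUP93 had 80.4 and 78.8 CPM against 94.2 and 93.4 CPM (log2 fold change 0.23, SE 0.23). Neither of these 2 genes passed. NUP188 stayed between 15.9 and 22.6 CPM in all 8 libraries. RAE1 and SEC13 were higher in both edited libraries without passing. Among the members that overlapped between the 8-cell groups were NUP85 with 27.9 and 29.3 CPM against 30.9 and 20.7 CPM, NUP214 with 23.9 and 33.7 CPM against 38.6 and 32.7 CPM and NUP62 with 20.0 and 26.9 CPM against 38.6 and 18.9 CPM.

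Agreement between the 2 libraries of a group differed by group. The median ratio of the higher to the lower library over the 29 members was 1.36 in 4-cell controls, 1.17 in 4-cell edited, 1.24 in 8-cell control and 1.15 in 8-cell edited embryos. Over all genes tested these medians were 1.31, 1.33, 1.27 and 1.23. The 4-cell controls were thus the group in which pore transcripts differed most between libraries, and NUP37, NUP43, AHCTF1 and NUP62CL differed there by 1.88-fold to 2.71-fold.

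Whether the editing effect itself differed between the stages was tested directly. It did for 5 members at an adjusted p-value under 0.05, a share to be read beside 3.96% of all genes tested. The effect at the 8-cell stage was the more negative for AHCTF1 (difference -2.41, SE 0.52), NUP37 (-1.77, SE 0.41), RANBP2 (-1.63, SE 0.36) and NUP133 (-1.58, SE 0.38). It was the more positive for SEC13 (difference 1.30, SE 0.31). The limma adjusted p-values of the 5 lay between 0.0298 and 0.0365.

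These 5 genes followed different courses. AHCTF1 and RANBP2 changed direction, with 4-cell edited libraries the highest and 8-cell edited libraries among the lowest. NUP37 and NUP133 were raised in 4-cell edited embryos and overlapped between the groups at the 8-cell stage. SEC13 was lowest in 4-cell edited embryos. At the level of the whole list 21 of the 29 differences were negative, with a median of -0.52, where that of all genes was -0.02.

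The calls for the difference were not stable across methods and libraries. No member passed with edgeR, beside 0.123% of all genes, with edgeR adjusted p-values from 0.0704 to 0.091 for the 5 genes. Without a filter on low values no gene at all passed. Few or no genes passed in the other fits below that left no member called. At an unadjusted p-value under 0.05 edgeR had 10 members, beside 19.9% of all genes. None passed either without a filter on low values, or without replicate 1 of the 4-cell controls, replicate 1 of the 8-cell controls or any of the 4 edited libraries. Without replicate 2 of the 4-cell controls 11 members passed, beside 11.5% of all genes, and DESeq2 called 5, beside 9.31%.

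**Figure D3:**
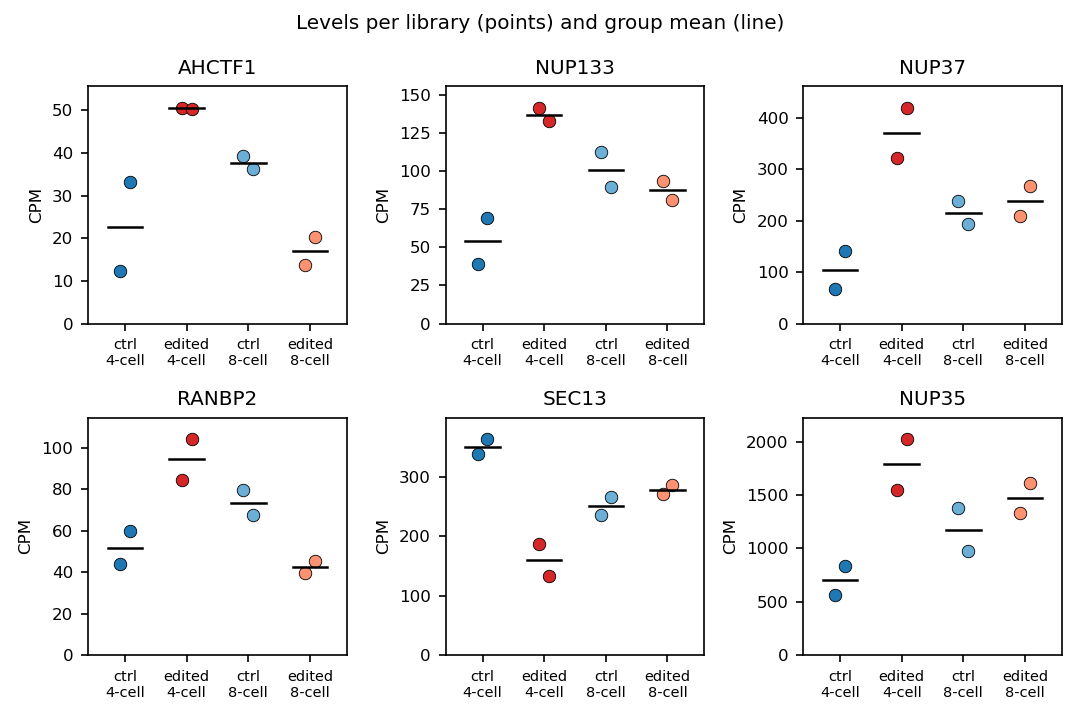
Levels in CPM (linear axis from 0) of the 5 genes whose editing effect differed between stages, and of NUP35, in the 4 groups. Points are libraries and lines are group means. AHCTF1 and RANBP2 are highest in 4-cell edited embryos and low in 8-cell edited embryos, and SEC13 is lowest in 4-cell edited embryos.

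Stage was then compared within controls. NUP37, NUP133 and NUP153 were higher in 8-cell than in 4-cell controls, with log2 fold changes of 1.13 (SE 0.29), 0.94 (SE 0.27) and 0.998 (SE 0.27) and limma adjusted p-values between 0.031 and 0.0426. That is 10.3% of the members tested, beside 2.75% of all genes. No member was called lower by limma, edgeR or DESeq2, beside 6.27% of all genes with limma. An unadjusted limma p-value under 0.05 was found for 9 members, beside 29.4% of all genes, and of these SEC13 alone had a lower level at the 8-cell stage. The libraries did not overlap in 14 members that were higher at the 8-cell stage, beside 28.4% of all genes, and in 2 that were lower, beside 30.8%. These libraries also enter the 4-cell editing comparison, so the stage change in controls and the 4-cell editing effect share the low 4-cell control values. The 3 calls all ended with edgeR, beside 0.588% of all genes, and when only the control libraries were fitted, beside 1.33%. They also ended without replicate 1 of the 4-cell controls or of the 8-cell controls, where few of all genes passed. Without the former the log2 fold changes of NUP37, NUP133 and NUP153 were 0.60, 0.53 and 0.62. Without the latter they were 0.98, 0.77 and 0.98. Leaving out either 4-cell edited library left NUP153 called, and fewer of all genes passed there too. Without replicate 2 of the 4-cell controls AHCTF1, NUP160, NUP35 and NUP54 passed as well, and more of all genes did.

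Within edited embryos AHCTF1 and RANBP2 fell from the 4-cell to the 8-cell stage, with log2 fold changes of -1.54 (SE 0.37) and -1.13 (SE 0.25). SEC13 rose by 0.82 (SE 0.22). The limma adjusted p-values were 0.0277, 0.0212 and 0.044, and the shares were 6.90% lower and 3.45% higher, beside 3.73% and 1.45% of all genes. NUP93 had 54.2 and 57.6 CPM in 4-cell and 94.2 and 93.4 CPM in 8-cell edited embryos, and RAE1 374 and 355 CPM and 569.8 and 586 CPM. Neither passed, with limma adjusted p-values of 0.0695 and 0.0729. Both passed with limma when only the edited libraries were fitted (0.036 and 0.0196). That fit called 9.47% of all genes, beside 5.18% in the main fit. No member was called by limma without replicate 2 of the 4-cell edited embryos or when either 8-cell edited library was left out. Few of all genes passed in those fits. Without replicate 2 of the 4-cell edited embryos the log2 fold changes of AHCTF1, RANBP2 and SEC13 were -1.55, -0.98 and 0.57. When either 4-cell control library was left out, NUP107, NUP93, RAE1 and TPR passed as well, and more of all genes did. With edgeR RANBP2 alone was called, beside 2.21% of all genes.

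Transport through the pore depends on carrier proteins and on the Ran cycle, and these genes were described from lists beside the pore members. Importins and exportins, which carry cargo, had 5 genes that rose and 4 that fell, of 26, in 4-cell edited embryos. These shares were 19.2% and 15.4%, beside 18.9% and 25.8% of all genes, and the median log2 fold change was -0.03. KPNA5, TNPO1 and IPO11, which are import receptors, rose, with log2 fold changes of 2.00, 0.998 and 1.11. IPO5, another import receptor, fell at both stages, from 51.4 and 86.3 CPM to 28.1 and 27.8 CPM in 4-cell and from 65.5 and 67.3 CPM to 21.0 and 14.2 CPM in 8-cell embryos. At the 8-cell stage 1 of the 26 was called higher, KPNA7, the importin alpha known for its expression in oocytes, and 3 were called lower, beside 1.08% and 14.5% of all genes.

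XPO1, the main protein exporter, was, like RANBP2, highest in the 4-cell edited libraries. It stood at 16.7 and 30.6 CPM in 4-cell controls, 49.5 and 53.8 CPM in 4-cell edited, 30.9 and 30.5 CPM in 8-cell control and 20.2 and 21.9 CPM in 8-cell edited libraries. Its editing effect differed between stages by -1.68 (limma adjusted p-value 0.0406). XPO1 is the only one of the 26 carriers with such a difference at an adjusted p-value under 0.05. That share is 3.85%, beside 3.96% of all genes tested.

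Of the 7 genes of the Ran cycle, RAN and NUTF2, which returns Ran to the nucleus, fell at the 4-cell stage. The other 5 did not pass. The share that fell was 28.6%, beside 25.8% of all genes. RAN, the small GTPase that gives transport its direction, went from 1432 and 1524 CPM to 701 and 874 CPM (log2 fold change -0.92) and at the 8-cell stage from 1266 and 1289 CPM to 722 and 693 CPM (log2 fold change -0.85). The 7 had a median of -0.26 in 4-cell and of 0.07 in 8-cell embryos.

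Among 25 mRNA export factors, 6 rose and 10 fell in 4-cell edited embryos. The shares were 24% and 40%, beside 18.9% and 25.8% of all genes. ENY2, CETN2 and THOC7, subunits of the TREX-2 and THO complexes, rose by 1.35, 1.08 and 1.07. ALYREF, DDX39A and THOC6 fell, ALYREF from 194 and 99.9 CPM to 25.7 and 26.9 CPM. At the 8-cell stage 2 of the 25 were called, SEM1 and CETN3, both lower, a share of 8% beside 14.5% of all genes. Of 19 genes of the nuclear lamina and inner membrane 5 were called higher and 6 lower at the 4-cell stage. These shares were 26.3% and 31.6%, beside 18.9% and 25.8% of all genes. TMPO and LEMD3 rose by 1.50 and 2.07, and TOR1AIP2 and LEMD2 fell, with log2 fold changes of -2.00 and -2.37. TMPO, LEMD3 and LEMD2 are LEM-domain proteins of the nuclear envelope, so genes of this family went both ways. The oocyte and early embryo list came closer to the pore members at the 4-cell stage. Of its 15 tested genes 40% were called higher and 6.67% lower, beside 41.4% and 6.90% of the pore members. The difference between the pore members and any of these lists was not tested.

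**Figure D4:**
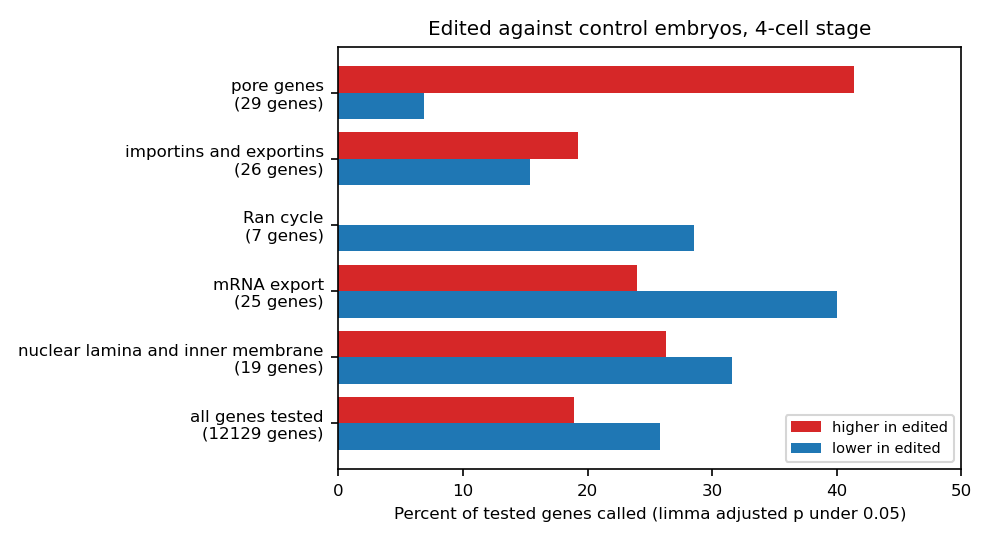
Percent of the tested genes called higher (red) and lower (blue) in edited embryos at the 4-cell stage, for the pore members, 4 lists of transport and envelope genes, and all 12129 genes tested. Of the pore members 41.4% were called higher and 6.90% lower, beside 18.9% and 25.8% of all genes.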

How the data were processed

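RNA sequencing libraries were made from full-length amplified cDNA by tagmentation, per the labels' protocols. Trim Galore 0.6.7, HISAT2 2.2.1 and featureCounts 2.0.1 are named in the submitters' processing notes. The genome build, annotation and strand setting are not given in the sources used here, so reads of overlapping genes or close copies may be split. The deposited values are CPM, although the table's name speaks of raw counts. In the 8 columns used, 100% of the positive CPM were whole multiples, within 0.05 reads, of 1 step per library, so whole reads were recovered. The table has 4 further columns that match no sample given here and were not used.

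The main test was limma 3.58.1 (R 4.3.3) on log2(CPM + 1) with a trend of the variance on the level. It covered 12129 genes, those whose mean CPM reached 1, and fitted 1 mean per group to all 8 libraries. P-values are two-sided and Benjamini-Hochberg adjusted over all genes tested. On the recovered reads, edgeR 4.0.16 called 5172 genes between edited and control embryos at 4 cells and 1695 at 8 cells, of 14629 tested. Limma called 5419 and 1895 of 12129, and DESeq2 1.42.0 called 5581 of 14978 and 2229 of 14656. The shares with edgeR, limma and DESeq2 were 35.4%, 44.7% and 37.3% at 4 cells. At 8 cells they were 11.6%, 15.6% and 15.2%. Other alternatives were pseudocounts of 0.1 and 5 CPM, no filter, 2 other scalings, fewer libraries and a replicate block. The scripts were tested on simulated data.

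The members, gene lists and rules were chosen with earlier results of these data known. Every member may be named, with values in every library for up to 10 called members per direction, and up to 3 called genes per other list and direction. The labels name separate pools, and p-values then measure only the spread between them. No transcript lengths were used, so CPM summed over genes and the share of NUP35 in them weigh genes without regard to length. Levels were not otherwise compared between genes. Of a list of 9 blood and immune cell genes 5 were in the table, summing to 4.56 to 12.8 CPM per library. Counting error is small at this depth, and 3 reads correspond to 0.0858 to 0.0899 CPM. Reads without molecular identifiers are not independent molecules. Some genes of the list of pore-associated proteins are not reported here.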

Additional observations from a re-analysis of the deposited data

Results flagged for a closer look

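For 5 pore genes limma's test of the difference itself found that the effect of editing was not the same at the 4-cell and the 8-cell stage. The 8-cell effect minus the 4-cell effect was -2.41 for AHCTF1, -1.58 for NUP133, -1.77 for NUP37 and -1.63 for RANBP2, and it was 1.30 for SEC13, all on the log2(CPM + 1) scale. The limma adjusted p-values lay between 0.0298 and 0.0365. None of the 5 passed with edgeR, beside 0.123% of all genes. The cumulus and granulosa cell genes described above also moved with the groups, and their part in these differences was not tested.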

How the results depend on the processing

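No called pore gene changed sign under any alternative tried. The count of 14 at the 4-cell stage lay between 13 and 15 under the other methods and settings and between 8 and 18 when 1 library was left out, and 8 of the 14 calls (AAAS, NUP133, NUP153, NUP35, NUP37, NUP54, SEC13 and SEH1L) passed in all 18 alternatives. The calls in the other comparisons did not: none passed in every alternative. Without a low-value filter the counts were 0 for the 8-cell editing effect, and 0 and 0 for stage in control and edited embryos. For the difference between stages the count was 0. Of all genes 9.2%, 0.006%, 0.1% and 0% passed in these comparisons, in that order. With edgeR on recovered reads the counts were 0, 0, 1 and 0, beside 11.6%, 0.588%, 2.21% and 0.123% of all genes. A pseudocount of 0.1 CPM gave 0 for the 8-cell editing effect and 1 for stage in controls, beside 15.7% and 4.91% of all genes. Median-of-ratios scaling likewise gave 0 and 1, beside 15% and 8.95%. For the 8-cell effect a pseudocount of 5 CPM gave 0 and DESeq2 1, beside 14.3% and 15.2% of all genes. Fitting only the libraries compared gave 0 for stage in controls and 9 in edited embryos, beside 1.33% and 9.47% of all genes. The cause of these shifts was not tested. With 1 library left out the counts ranged from 0 to 3 for the 8-cell effect, 0 to 7 for stage in controls, 0 to 7 in edited embryos and 0 to 11 for the difference. Where that left 1 library in a group, it was assumed to vary like the other groups.

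Same-numbered libraries had deviations that correlated at 0.11 and -0.09 across the editing comparisons and at -0.30 and 0.02 across the stage comparisons, so the numbers were not taken as pairs. A replicate block left the 8-cell editing effect with 1 call and the 4-cell effect with 14, beside 15.2% and 43.1% of all genes. It left stage with 3 calls in control and 2 in edited embryos, beside 8.12% and 4.57%, and the difference with 5, beside 3.18%. Crossing the numbers of the 8-cell controls in the block, an alternative chosen after seeing the data, gave 5 calls for stage in controls. That stood beside 13.9% of all genes. Relative to the main setting, edgeR moved the median difference of all genes between stages from -0.02 to -0.15.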

Other observations

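NUP210 had between 0 and 18 reads per library. It was at 0 reads in both 4-cell edited libraries, where 3 reads correspond to 0.0868 and 0.0877 CPM, and at 0.261 and 0.528 CPM in the 4-cell controls. NUP210L, its relative known from the germ line, had 1.10 and 1.50 CPM in 4-cell controls, 1.13 and 1.14 CPM in 4-cell edited, 0.429 and 0.355 CPM in 8-cell control and 1.40 and 0.869 CPM in 8-cell edited libraries. The 8-cell controls were the lowest and did not overlap the other libraries. Neither gene was tested.

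Proteins that work at the pore without belonging to the members by name were listed separately, and 8 of the 12 listed were in the table and tested. SENP1, a SUMO protease, was called higher in 4-cell edited embryos, with a log2 fold change of 0.68. ZC3HC1, a protein of the nuclear basket that binds TPR, went the other way: 54.4 and 56.5 CPM in 4-cell controls stood against 24.1 and 22.8 CPM in edited embryos, with 33.2 and 35.8 CPM against 37.1 and 44.0 CPM at the 8-cell stage. Its editing effect differed between stages by 1.43 (limma adjusted p-value 0.0393). POM121C, a membrane protein of the pore, had between 2.70 and 8.91 CPM.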
